A study of Drosophila melanogaster with 23 samples.

Results

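The effect of losing the histone methyltransferase Set2 was set against the effect of changing lysine 36 of the histone variant H3.3, gene by gene, in first instar (L1) larvae of Drosophila melanogaster. The Set2 effect is the log2 fold change of larvae labelled Set21 over the stock yw. The H3.3K36R effect is that of larvae labelled H3.3K36RH3.2HWT over their control, H3.3CtrlH3.2HWT. The value studied is the difference of effects, the first minus the second, so a positive difference means that a gene stood higher in Set21 larvae, relative to yw, than the H3.3 substitution placed it relative to its own control. All libraries with these 4 titles were used, 15 of the 23 in the series: 4 of Set21, 3 of yw, 4 of H3.3K36RH3.2HWT and 4 of H3.3CtrlH3.2HWT. Both effects come from separate libraries and share none. Set21 larvae carry the mutant Set2 genotype of that label and yw, named for the body and eye color markers yellow and white, is its control; replicate 1 of yw was set aside by the submitters over a fault in its library. H3.3K36RH3.2HWT larvae carry the K36R substitution in H3.3 with H3.2 labelled HWT, and H3.3CtrlH3.2HWT larvae have the same H3.2 label with H3.3 labelled Ctrl. Samples were pools of whole larvae of both sexes from crosses kept at 25 °C. The submitters describe the controls as matched to their mutants' background, so each mutation is seen only against its own stock, and a difference of effects cannot be told apart from a difference between the backgrounds. The labels do not say whether replicates were separate cultures, so p-values measure the spread between these samples, part of which may be technical.

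Set2 travels with elongating RNA polymerase II and trimethylates lysine 36 of histone H3 (H3K36) in the bodies of transcribed genes. H3.3 is the form of H3 put into chromatin outside of DNA replication, largely at transcribed genes, while H3.2 is laid down during replication. An arginine at position 36 of H3.3 cannot receive those methyl groups, while neither genotype label names a change in H3.2 or in Set2. In male flies the dosage compensation (MSL) complex uses methylated H3K36 to spread along active genes of the single X, and the series is titled for the action of Set2 and H3K36 on that chromosome. Here the sexes were mixed.

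Library totals ran from 111138070 to 157973821 counts over the 15 libraries. Levels are given as CPM, the usual counts relative to library size, here scaled by TMM factors. Set2 checked the labels (chromosome X, 13413242 to 13421024 in the BDGP6.54 annotation): it was read at 4.97, 6.2, 7.69 and 7.19 CPM in the Set21 libraries and 79.3, 70.4 and 82.4 CPM in yw, against 74.2 to 77.1 CPM in H3.3K36RH3.2HWT and 71 to 76.6 CPM in H3.3CtrlH3.2HWT. Only the mutant libraries were low, and the difference of effects was -3.62 ± 0.14 (adjusted p = 2.72e-13). Markers of the larval tissues were present in all 15 libraries, from the neuronal elav at 64.9 to 172 CPM to the epidermal chitin synthase kkv at 80.0 to 157 CPM. The fat body storage protein gene Lsp2 was at 0 to 0.536 CPM. The 4 Set21 libraries also stood apart from yw on the first principal component of the spread among replicates of the histone genotypes (called the axis of spread here), at scores of 73.1 to 90.0 against 6.45 to 12.6 in yw. The H3.3K36RH3.2HWT libraries were spread from -16.1 to 63.3 on it and the H3.3CtrlH3.2HWT libraries from -27.6 to 46.7.

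The 2 effects differed for 1493 of 14365 genes tested (10.4%; edgeR quasi-likelihood test, adjusted p below 0.05), 473 with a positive difference (3.29%) and 1020 with a negative one (7.1%). A difference of at least 2-fold was called for 593 of them, 291 positive (2.03%) and 302 negative (2.1%). The Set2 effect alone was called for 6399 genes (44.5%), 3361 higher (23.4%) and 3038 lower (21.1%), and the H3.3K36R effect for 282 (1.96%), 136 higher (0.947%) and 146 lower (1.02%). The median standard error was close for both, at 0.19 for the Set2 effect and 0.18 for the H3.3K36R effect, while the median size of the fold change was 0.50 and 0.22 on the log2 scale. Mutant and control libraries did not overlap for 46% of genes in the Set2 comparison and for 11% in the H3.3 comparison. The difference count was 846 without H3.3CtrlH3.2HWT replicate 3, 805 without H3.3K36RH3.2HWT replicate 1, 865 without H3.3K36RH3.2HWT replicate 2, 965 without Set21 replicate 1 and 852 without yw replicate 4. The negative calls alone were 395 to 587 without any of these 5 libraries or without H3.3CtrlH3.2HWT replicate 2 (587), yw replicate 2 (556) or yw replicate 3 (574), and the positive ones were 307 without yw replicate 4. The H3.3K36R count was 156 without H3.3CtrlH3.2HWT replicate 1, 184 without H3.3CtrlH3.2HWT replicate 2, 464 without H3.3K36RH3.2HWT replicate 1, 168 without H3.3K36RH3.2HWT replicate 3 and 169 without H3.3K36RH3.2HWT replicate 4.

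**Figure D1:**
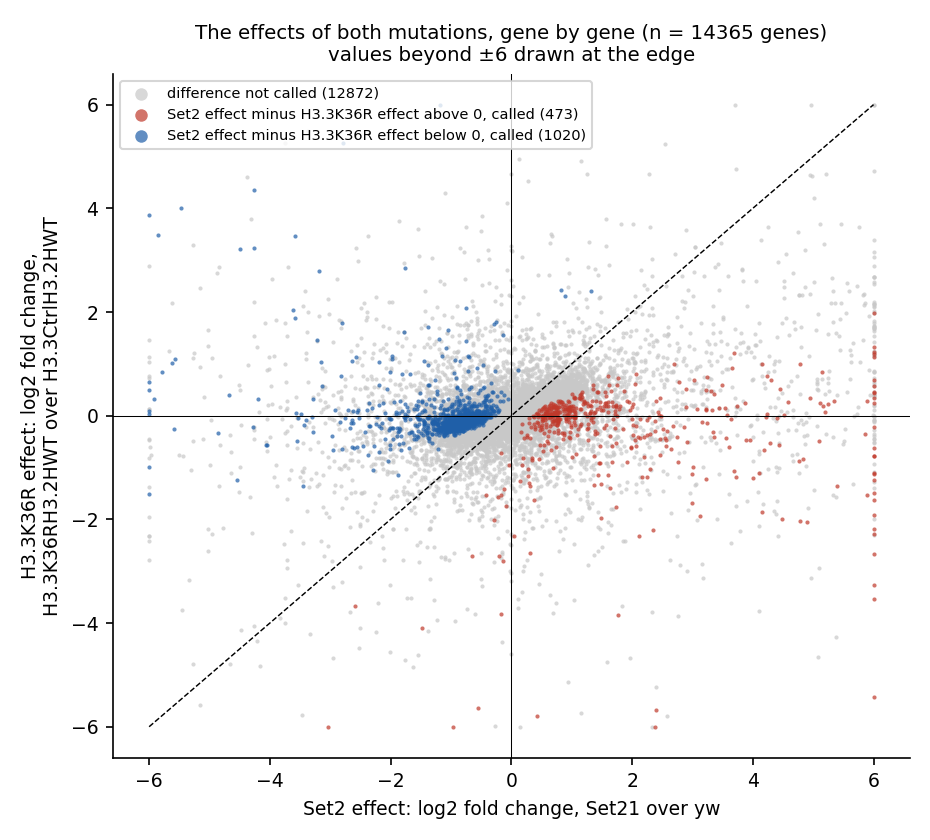
Each point is 1 of 14365 genes, with the Set2 effect (log2 fold change of Set21 over yw) on the horizontal axis and the H3.3K36R effect (log2 fold change of H3.3K36RH3.2HWT over H3.3CtrlH3.2HWT) on the vertical axis. The dashed line marks equal effects; the 473 red and 1020 blue genes are those whose difference of effects was called above and below 0, and most lie along the horizontal axis, where the H3.3K36R effect is near 0.

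Most called differences were genes that moved in Set21 larvae and were not called in the H3.3 mutant. Of the 1493 genes, 1420 were called in the Set2 effect, 81 in the H3.3K36R effect and 33 in neither. Those lower in Set21 and not called in the H3.3 mutant numbered 964, and those higher in Set21 and not called there 415. Of all 3038 genes lower in Set21, 32.5% had a called difference, and of all 3361 higher genes 12.9%. The gap between both shares depended on single libraries: the share of lower genes was 13.1% without H3.3K36RH3.2HWT replicate 1, 14.4% without H3.3CtrlH3.2HWT replicate 3 and 15.7% without H3.3K36RH3.2HWT replicate 2, where that of higher genes was 10.5%, 10.8% and 10.4%. It was 19.2% to 21.5% without Set21 replicate 1, H3.3CtrlH3.2HWT replicate 2 or yw replicate 2 or 4, and 21.6% with the length trend described below removed. DESeq2 called 20.6% of its higher genes. The level in Set21 was below every other library of the 4 genotypes for 772 of the 1020 negative differences (75.7%), where 12% of all genes tested had that order. For the 473 positive differences, Set21 was above every other library in 212 (44.8%, 13.6% of all genes) and yw was below every other library in 166 (35.1%, 2.12% of all genes). The differences were called on the same libraries, so the selection itself made such orders more frequent than among all genes.

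Most of the genes that moved in Set21 had an H3.3K36R effect on the same side of 0. Among the 3361 genes higher in Set21, the H3.3K36R effect had a median of 0.27 and was above 0 in 88.9%. Among the 3038 lower genes its median was -0.15, and it was below 0 in 83.9%. Of all genes tested 53.8% had an H3.3K36R effect above 0. With that component's score added as a covariate, which left 1403 higher and 1854 lower genes in the Set2 effect, the shares were 78.6% and 73.8%. Across all genes the effects had a Pearson correlation of 0.22 and a Spearman correlation of 0.42, given as a description since genes are not independent replicates. Called in both effects were 187 genes, which is 2.92% of the Set2 calls and 66.3% of the H3.3K36R calls, and 165 of them (88.2%) had the same direction. The count of 187 was 98, 115, 292 and 123 without H3.3CtrlH3.2HWT replicate 1, 2, 3 or 4, and 347, 102 and 104 without H3.3K36RH3.2HWT replicate 1, 3 or 4, in the order given. It was 339 in the fit to the 15 libraries and 534 with DESeq2. The share with the same direction was 82.6% to 94.4% in these fits.

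The largest differences are given for genes with a symbol other than a CG or CR number, a mean of at least 5 CPM over the 15 libraries and no overlap between mutant and control in at least 1 of the comparisons. In several of the largest positive differences yw was the low group. Drsl2, a gene of the drosomycin family of antifungal peptides, was at 8.87, 10.1, 19.4 and 12.6 CPM in Set21 and 0.034, 0.137 and 0.28 CPM in yw, against 25, 16.3, 13.1 and 17.8 CPM in H3.3K36RH3.2HWT and 9.12, 14.2, 12.8 and 16.2 CPM in H3.3CtrlH3.2HWT. The levels of the other groups overlapped and yw was far below them. The difference of effects was 5.95 ± 0.70 (adjusted p = 2.08e-05). Amy-d, a starch-digesting amylase of the midgut (chromosome arm 2R, 17124764 to 17126369), was at 75.4, 73.2, 192 and 122 CPM in Set21 and 4.67, 5.15 and 2.39 CPM in yw, against 38.4, 41.2, 34.8 and 55.5 CPM in H3.3K36RH3.2HWT and 71, 64.4, 72.8 and 94.9 CPM in H3.3CtrlH3.2HWT. The Set21 libraries were all above yw, whereas the H3.3 mutant libraries were all below their control. Its Set2 effect was 4.83 ± 0.37, its H3.3K36R effect -0.84 ± 0.28 (adjusted p = 0.125) and the difference 5.66 ± 0.45 (adjusted p = 7.14e-08). Amy-d has a near-identical neighbor, Amy-p, between which reads may be split, and Amy-p was not called in either effect or in the difference (1.44 ± 0.53, adjusted p = 0.0891), a difference that passed in 4 of the 23 alternative settings, with DESeq2, without H3.3K36RH3.2HWT replicate 4 and without yw replicate 2 among them (adjusted p = 0.0494, 0.041 and 0.0194).

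Tobi, an alpha-glucosidase gene controlled by dietary protein and sugar, averaged 17.5 ± 2.83 CPM in Set21 and 1.13 ± 0.25 CPM in yw, against 10.4 ± 1.89 CPM in H3.3K36RH3.2HWT and 14.3 ± 1.81 CPM in H3.3CtrlH3.2HWT (SD, n = 4, 3, 4 and 4). The difference was 4.42 ± 0.27 (adjusted p = 3.64e-10). PGRP-SC2, a gut amidase that breaks down bacterial peptidoglycan, averaged 203 ± 85.3 CPM in Set21 and 32.3 ± 8.41 CPM in yw, against 243 ± 18.7 CPM in H3.3K36RH3.2HWT and 381 ± 27.4 CPM in its control (SD, same n), with a difference of 3.3 ± 0.31 (adjusted p = 3.28e-07). Its relative PGRP-SC1a had a difference of 3.15 ± 0.86, and that call was lost without H3.3CtrlH3.2HWT replicate 3, H3.3K36RH3.2HWT replicate 1 or 2, or yw replicate 3 or 4 (adjusted p = 0.051 to 0.0772). MtnA, a metallothionein that binds copper and other metals, was at 1193, 1135, 1260.4 and 971 CPM in Set21 and 209, 179 and 197 CPM in yw, and at 451, 373, 491 and 507 CPM in H3.3K36RH3.2HWT and 744, 640.1, 566 and 509.99 CPM in H3.3CtrlH3.2HWT. For MtnA the Set21 libraries were the highest of all 15 and yw the lowest, and every H3.3 mutant library was below every control library. The difference was 2.98 ± 0.18 (adjusted p = 3.64e-10).

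The other large positive differences were small structural RNAs and tpr. The U3 snoRNA gene snoRNA:U3:54Aa, of the RNA family that guides processing of ribosomal RNA, averaged 85.1 CPM in Set21 and 3.72 CPM in yw (difference 4.51 ± 0.54), against 228 CPM in H3.3K36RH3.2HWT and 226 CPM in its control. The spliceosomal snRNA:U2:34ABa (3.12 ± 0.82) and snoRNA:Psi28S-2648 (3.09 ± 0.46) were also called. The U2 and U3 genes have near-identical copies, so their values are uncertain, and the U2 call was lost without yw replicate 2 or 4 (adjusted p = 0.0573 and 0.068). The call of tpr (3.95 ± 1.07) was lost in 7 of the 15 fits that left out 1 library, those without H3.3CtrlH3.2HWT replicate 3, H3.3K36RH3.2HWT replicate 1 or 2, Set21 replicate 1, or yw replicate 2, 3 or 4 (adjusted p = 0.0521 to 0.0663).

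**Figure D2:**
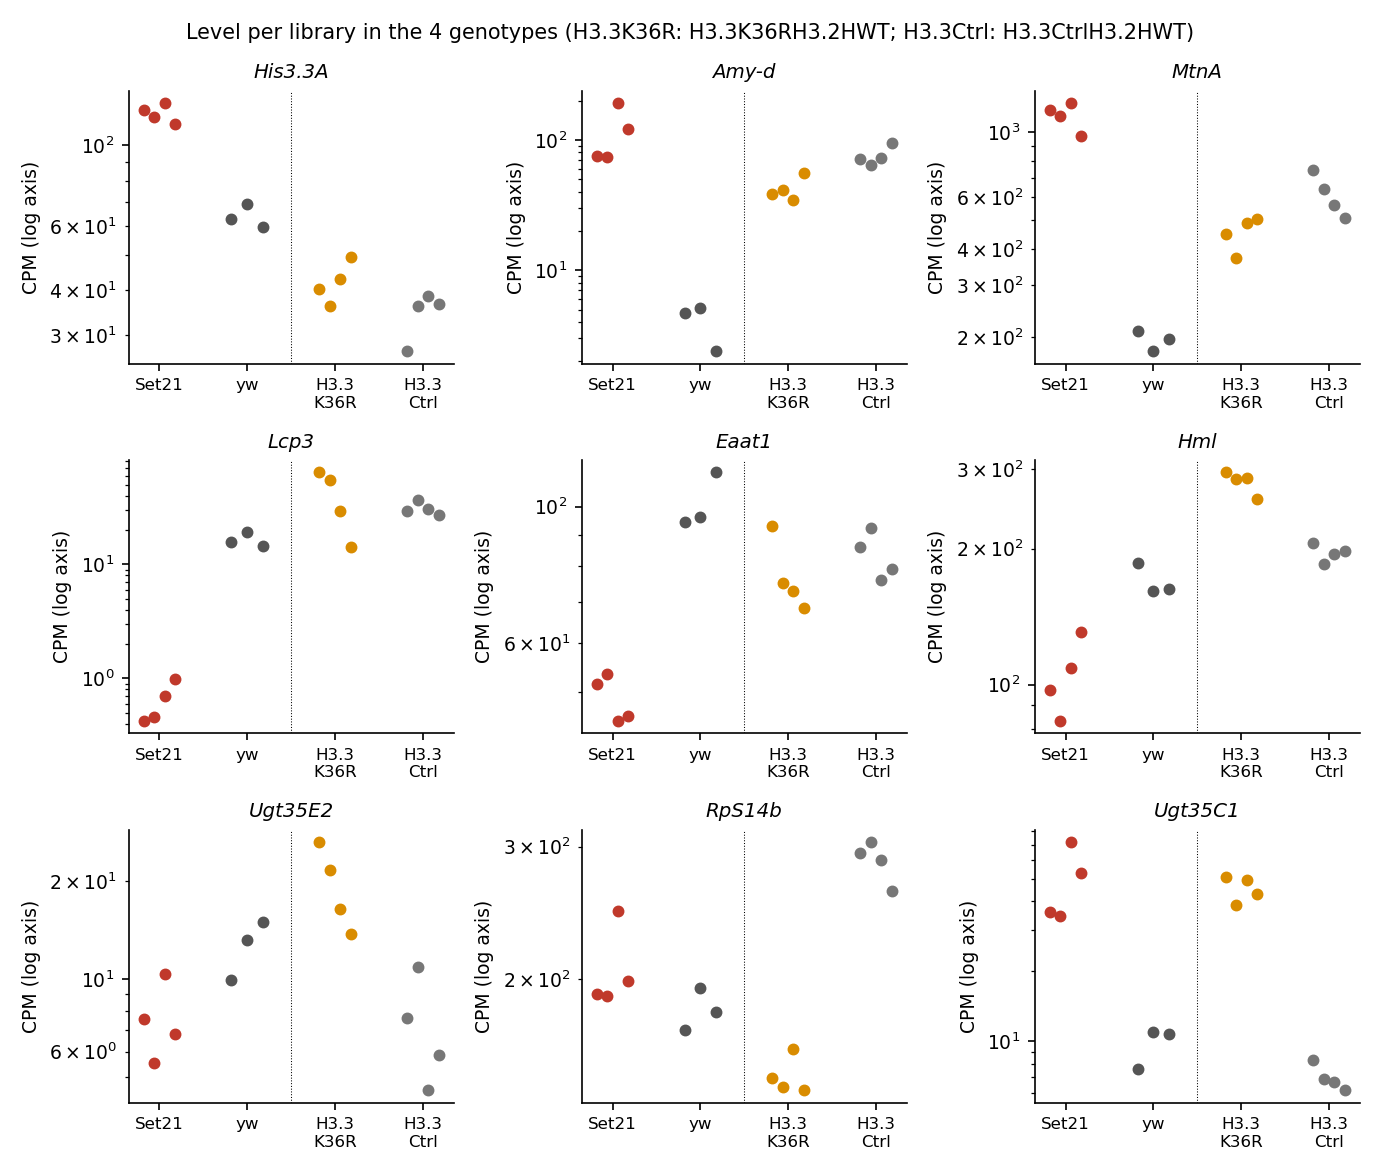
Each panel shows 1 gene, with its level in CPM on a log axis and 1 point per library in Set21 and yw (left of the dotted line) and in H3.3K36RH3.2HWT and H3.3CtrlH3.2HWT (right of it). Amy-d and MtnA are high in Set21 relative to yw and low in the H3.3 mutant relative to its control. Lcp3 and Eaat1 are low in Set21 alone, and Hml moves in opposite directions. RpS14b has its lowest mean in the H3.3 mutant and its highest in the histone control, and Ugt35C1 is higher in both mutants.

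The largest negative differences besides that of Set2 were taken by the same conditions. Hsp70Bb (-3.08), which met them too, is given below with the heat shock genes. Lcp3, a larval cuticle protein (chromosome arm 2R, 8435310 to 8436095), was at 0.425, 0.457, 0.695 and 0.987 CPM in Set21 and 15.7, 19.2 and 14.4 CPM in yw, against 64.1, 55.4, 29.4 and 14.3 CPM in H3.3K36RH3.2HWT and 29.3, 36.9, 30.4 and 27.1 CPM in H3.3CtrlH3.2HWT. Only the Set21 libraries were low, while the H3.3 mutant libraries spanned the range of their control. The difference was -5.08 ± 0.56 (adjusted p = 9.82e-06). Another cuticle gene, Lcp65Ae, had a difference of -1.99 ± 0.40 (adjusted p = 0.00369). The photolyase gene phr, whose product repairs ultraviolet damage in DNA, was at 2.2, 1.4, 2.63 and 2.25 CPM in Set21 and 13.4, 12.3 and 11.3 CPM in yw, and at 11.9 to 14.9 CPM in H3.3K36RH3.2HWT and 11.2 to 12.9 CPM in its control. Its difference was -2.66 ± 0.19 (adjusted p = 7.29e-09), and only Set21 left the common range. Klp54D, a kinesin motor gene, averaged 2.52 CPM in Set21 and 15.7 CPM in yw, with 4.08 CPM and 4.3 CPM in H3.3K36RH3.2HWT and its control, so that here yw was the high group. The same holds for Pepck2, a gene of gluconeogenesis (averages of 16.8, 63, 25 and 23.8 CPM in Set21, yw, H3.3K36RH3.2HWT and H3.3CtrlH3.2HWT), and for the small heat shock gene Hsp23 (3.25, 20.4, 7.05 and 7.8 CPM). Their differences were -2.56 ± 0.23, -1.97 ± 0.27 and -2.5 ± 0.47. Hsp23 was uneven in yw, at 30.3, 24.4 and 6.59 CPM.

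Pdcd4, an abundant X-linked gene related to an inhibitor of translation initiation in mammals (chromosome X, 13745577 to 13755406), was lower in Set21 and had values on the same side in the H3.3 mutant. It was at 84.1, 93.6, 104 and 149 CPM in Set21 and 454, 560.3 and 547 CPM in yw, against 267, 226, 189 and 195 CPM in H3.3K36RH3.2HWT and 362, 308, 296 and 351 CPM in H3.3CtrlH3.2HWT. Neither pair of groups overlapped. The H3.3K36R effect was -0.59 ± 0.16 (adjusted p = 0.0669) and the difference -1.69 ± 0.24 (adjusted p = 0.0001).

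In 22 genes the effects were called in opposite directions, 13 lower in Set21 and higher in the H3.3 mutant and 9 the other way. All 22 had a called difference in the main fit, which the selection made likely since opposite effects add up in their difference. The difference was also called in each of the 23 alternative settings run. Of the 22 genes, 6 kept both opposite calls in all 23. The number of opposite genes was 13 without H3.3CtrlH3.2HWT replicate 1, 34 with the length trend removed and 48 with DESeq2. Hml, which encodes the hemolectin of larval blood cells (hemocytes; chromosome arm 3L, 13846054 to 13860001), was at 97.5, 83.2, 109 and 130.5 CPM in Set21 and 186, 161 and 163 CPM in yw, but at 295, 286, 287 and 257 CPM in H3.3K36RH3.2HWT and 206, 185, 195 and 197 CPM in H3.3CtrlH3.2HWT. All Set21 libraries were below yw and all H3.3 mutant libraries above their control. Hml fell by 0.69 ± 0.11 (adjusted p = 4.94e-05) in the Set2 effect, rose by 0.52 ± 0.10 (adjusted p = 0.00568) in the H3.3K36R effect, and had a difference of -1.22 ± 0.15 (adjusted p = 1.51e-05). Of the 22 hemocyte and basement membrane genes tested Hml had a negative called difference and NimC1, a phagocytosis receptor gene of hemocytes, a positive one (9.09% called, near the 10.4% of all genes). A further positive call appeared in 5 of the 15 fits that left out 1 library (H3.3CtrlH3.2HWT replicate 2, H3.3K36RH3.2HWT replicate 3 or 4, Set21 replicate 1 or 2). NimC1 was at 3.89 to 7.89 CPM in Set21 and 1.38 to 1.61 CPM in yw, against 4.99 to 7.64 CPM in H3.3K36RH3.2HWT and 4.48 to 6.01 CPM in H3.3CtrlH3.2HWT, with a difference of 1.64 ± 0.27 (adjusted p = 0.000431). DNAlig3, a DNA ligase gene, had the reverse order at a smaller size, with a Set2 effect of 0.26 ± 0.11, an H3.3K36R effect of -0.41 ± 0.10 and a difference of 0.67 ± 0.14 (adjusted p = 0.00488). Ugt35E2, a glucuronosyltransferase of detoxification, was at 7.55, 5.55, 10.4 and 6.82 CPM in Set21 and 9.92, 13.2 and 15 CPM in yw, against 26.4, 21.7, 16.4 and 13.8 CPM in H3.3K36RH3.2HWT and 7.6, 10.9, 4.56 and 5.87 CPM in H3.3CtrlH3.2HWT. Set21 overlapped yw in 1 library, while the H3.3 groups were separate, and the difference was -2.18 ± 0.37 (adjusted p = 0.000753).

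Of the 22 opposite genes 8 lay on the X (36.4%), where 15.7% of the genes tested lie. Of the genes called in the H3.3K36R effect, from which the 22 come, 30.1% lay on the X. Of these 8, 3 are neighbors: the non-coding genes lncRNA:CR45082 (chromosome X, 21496526 to 21520017) and lncRNA:CR46472 and the cytochrome P450 gene Cyp6t1 (chromosome X, 21517434 to 21519218), which lies inside the span of lncRNA:CR45082, so that their reads may be shared. LncRNA:CR46472 (chromosome X, 21520175 to 21527105) was at 1.31, 1.42, 1.09 and 1.09 CPM in Set21 and 3.41, 3.17 and 5.83 CPM in yw, but at 5.69, 6.6, 5.52 and 7.91 CPM in H3.3K36RH3.2HWT and 0.938, 0.896, 1.02 and 0.697 CPM in H3.3CtrlH3.2HWT. The levels in Set21 and in the histone control were low, and those in yw and in the H3.3 mutant were high. It fell by 1.75 ± 0.23 in the Set2 effect and rose by 2.86 ± 0.23 in the H3.3K36R effect, with a difference of -4.61 ± 0.33 (adjusted p = 5.43e-09). Cyp6t1, named here after its values were seen, had the same order, at 0.185, 0.097, 0.168 and 0.183 CPM in Set21 and 1.73, 2.14 and 1.85 CPM in yw, against 2.34, 1.56, 1.5 and 1.07 CPM in H3.3K36RH3.2HWT and 0.159, 0.197, 0.0968 and 0.128 CPM in H3.3CtrlH3.2HWT. Its difference was -7.06 ± 0.56 (adjusted p = 2.36e-08). LncRNA:CR45082 had no counts in any Set21 library, 0.501, 0.634 and 0.604 CPM in yw, 0.504 to 0.786 CPM in H3.3K36RH3.2HWT and 0.0152 to 0.0586 CPM in the histone control. Another of the 8, CG8664, also named after its values were seen, was at 38.7 to 61.2 CPM in Set21 and 68 to 82.7 CPM in yw, against 135 to 180.1 CPM in H3.3K36RH3.2HWT and 62 to 93.4 CPM in H3.3CtrlH3.2HWT, with a difference of -1.83 ± 0.26 (adjusted p = 0.000139).

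The genes that moved together in both mutants were led by Ugt35C1, another glucuronosyltransferase gene, at 35.9, 34.4, 71.9 and 52.7 CPM in Set21 and 7.59, 10.9 and 10.7 CPM in yw, and 51, 38.3, 49.3 and 42.8 CPM in H3.3K36RH3.2HWT and 8.28, 6.85, 6.65 and 6.13 CPM in H3.3CtrlH3.2HWT. Both mutants were above both controls with no overlap. It rose by 2.32 ± 0.21 in the Set2 effect and by 2.7 ± 0.19 in the H3.3K36R effect, and the difference was -0.38 ± 0.27 (adjusted p = 0.411). Higher in both were also the cuticle gene Cpr12A (1.04 and 1.21), Apl (1.13 and 0.96), the tRNA methyltransferase gene Trm7-32 (1.22 and 0.87) and the lipid droplet gene sturkopf (1.36 and 0.85), each as the Set2 and then the H3.3K36R effect. For sturkopf the difference was 0.51 ± 0.17 (adjusted p = 0.0595), and it passed in 12 of the 23 alternative settings. Lower in both were Sirup, which acts in assembly of respiratory complex II (-1.43 and -1.22), Pig1 (-1.22 and -1.24), Ag5r (-1.44 and -1.04), the cuticle gene Edg91 (-0.74 and -1.33) and l(1)G0469 (-1.14 and -0.69). The genes of this paragraph were taken from those without a called difference in the main fit, so its absence was fixed by the selection. The difference of Edg91 passed without H3.3K36RH3.2HWT replicate 1 (adjusted p = 0.0386). The pool they came from held 59 genes, 28 higher in both and 31 lower in both. Each was called in both effects in the same direction, without a called difference and with no overlap in both comparisons. The conditions on level and symbol were those used for the largest differences. Pig1 had nearly equal effects, with a difference of 0.03 ± 0.18.

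A smaller set of differences came from the H3.3 side. Among the 136 genes higher in the H3.3 mutant the Set2 effect had a median of 0.53, and 23.5% had a called difference. Among the 146 lower genes the median Set2 effect was -0.48, and 33.6% had a called difference. Spn88Eb, a serine protease inhibitor gene, was at 6.87, 5.01, 7.91 and 6.6 CPM in Set21 and 8.58, 6.89 and 8.02 CPM in yw, but at 8.39, 7.55, 7.18 and 5.43 CPM in H3.3K36RH3.2HWT and 1.1, 1.97, 3.26 and 1.79 CPM in H3.3CtrlH3.2HWT. Only the histone control was low, and the difference was -2.06 ± 0.41 (adjusted p = 0.00282). The ribosomal protein gene RpS14b (chromosome X, 7934898 to 7935792) averaged 206 ± 26.8 CPM in Set21 and 182 ± 11.8 CPM in yw, against 149 ± 8.66 CPM in H3.3K36RH3.2HWT and 287 ± 18.1 CPM in H3.3CtrlH3.2HWT (SD, n = 4, 3, 4 and 4). It fell by 0.95 ± 0.09 in the H3.3K36R effect (adjusted p = 2.35e-07), and the difference was 1.13 ± 0.13 (adjusted p = 4.55e-06). RpS14b has a near-identical neighbor, RpS14a, so its share of the reads is uncertain.

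CG1304, an X-linked gene, was at 2.82 to 5.66 CPM in Set21 and 4.13 to 4.68 CPM in yw, against 4.34 to 5.79 CPM in H3.3K36RH3.2HWT and 63.5 to 83.1 CPM in H3.3CtrlH3.2HWT. The histone control alone was high, with a difference of 3.66 ± 0.26 (adjusted p = 5.48e-09). The fucosyltransferase gene FucTC was lower in both mutants, at 4.68, 5.74, 6.59 and 4.71 CPM in Set21 and 34.3, 29.7 and 33.6 CPM in yw and at 2.07, 2.38, 1.88 and 1.96 CPM in H3.3K36RH3.2HWT and 27.5, 24.7, 27.7 and 25.3 CPM in H3.3CtrlH3.2HWT. The fall was larger in the H3.3 mutant, with a difference of 1.08 ± 0.19 (adjusted p = 0.00117). The gene mfr was at 0 to 0.0876 CPM in Set21 and 0.154 to 0.297 CPM in yw, against 0.103 to 0.194 CPM in H3.3K36RH3.2HWT and 11.9 to 18.8 CPM in H3.3CtrlH3.2HWT. Its called difference (adjusted p = 0.00659) was lost without Set21 replicate 4 (0.257). Blanks, which encodes an RNA-binding protein of the testis, rose in both, by 0.88 ± 0.26 in the Set2 effect and by 2.31 ± 0.23 in the H3.3K36R effect, and the difference of -1.42 ± 0.34 was lost without yw replicate 2 (adjusted p = 0.0525).

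Most neuronal and glial genes were lower in Set21, and for part of them the difference from the H3.3K36R effect was called. Of 28 neuronal genes tested, 24 were lower and none higher in the Set2 effect, where 21.1% of all genes are lower. In the H3.3K36R effect 1 was lower, and 13 had a negative called difference, which is 46.4% where 7.1% of all genes have one. The median of the 28 was -0.88 for the Set2 effect, -0.17 for the H3.3K36R effect and -0.69 for the difference. All genes tested had medians of 0.02, 0.03 and 0.00. All 28 genes had values below 0 in both effects, and so had the 14 glial genes described next. Gad1, which makes the transmitter GABA, was at 77.1, 78.3, 73.5 and 81.3 CPM in Set21 and 152, 137 and 163 CPM in yw, against 137, 122, 121 and 114 CPM in H3.3K36RH3.2HWT and 155, 156, 136 and 145 CPM in H3.3CtrlH3.2HWT. Set21 was below all other libraries, and the H3.3 groups overlapped in 1 library. The difference was -0.7 ± 0.15 (adjusted p = 0.00596). The vesicle gene Rab3 (-0.69 ± 0.16), the monoamine transporter gene Vmat (-0.72 ± 0.17) and the membrane fusion gene Snap25 (-0.69 ± 0.16) had differences of like size. The first 2 calls were lost without H3.3CtrlH3.2HWT replicate 3 or H3.3K36RH3.2HWT replicate 1, and that of Snap25 without H3.3K36RH3.2HWT replicate 1 (adjusted p = 0.0511 to 0.0538).

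The count of 13 neuronal genes depended on single libraries. It was 7 without H3.3CtrlH3.2HWT replicate 2, 2 without H3.3CtrlH3.2HWT replicate 3, 1 without H3.3K36RH3.2HWT replicate 1, 5 without H3.3K36RH3.2HWT replicate 2, 6 without Set21 replicate 1, 6 without yw replicate 2, 8 without yw replicate 3 and 7 without yw replicate 4. On the axis of spread, H3.3CtrlH3.2HWT replicate 3 scored 46.7 where the other control libraries were below 0, and H3.3K36RH3.2HWT replicate 1 scored -16.1 where the other H3.3 mutant libraries were above 0 With the axis score as a covariate, 12 neuronal genes had a negative difference, with a median of -0.55, and 18 were lower in the Set2 effect. In whole larvae, fewer cells of a type and less RNA per cell cannot be told apart.

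Of 14 glial genes 9 were lower in the Set2 effect, where 21.1% of all genes are. None was called in the H3.3K36R effect (1 at an unadjusted p below 0.05). A negative difference was called for 5 (35.7%, where 7.1% of all genes have one). The median was -0.42 for the Set2 effect and -0.09 for the H3.3K36R effect. Eaat1, the glutamate transporter of astrocyte-like glia (chromosome arm 2L, 9333567 to 9341925), was at 51.5, 53.5, 44.9 and 45.8 CPM in Set21 and 94.5, 96 and 114 CPM in yw, against 92.9, 75.2, 72.9 and 68.5 CPM in H3.3K36RH3.2HWT and 86.1, 92.2, 76.1 and 79.2 CPM in H3.3CtrlH3.2HWT. Set21 was separate from the other 11 libraries, and the H3.3 groups overlapped. The difference was -0.94 ± 0.16 (adjusted p = 0.000522). Eaat2 (-0.73 ± 0.15) and the glutamine synthetase gene Gs2 (-0.73 ± 0.17) were also called. The count was 3 without H3.3CtrlH3.2HWT replicate 3, H3.3K36RH3.2HWT replicate 1 or 2, Set21 replicate 1 or yw replicate 3. Of 22 muscle genes tested, 1 was higher and 1 lower in the Set2 effect, where 23.4% and 21.1% of all genes are. In the H3.3K36R effect edgeR called none (0 at an unadjusted p below 0.05). It also called none in the difference (1 at an unadjusted p below 0.05), where 10.4% of all genes are called. DESeq2 called none in the H3.3K36R effect or in the difference.

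**Figure D3:**
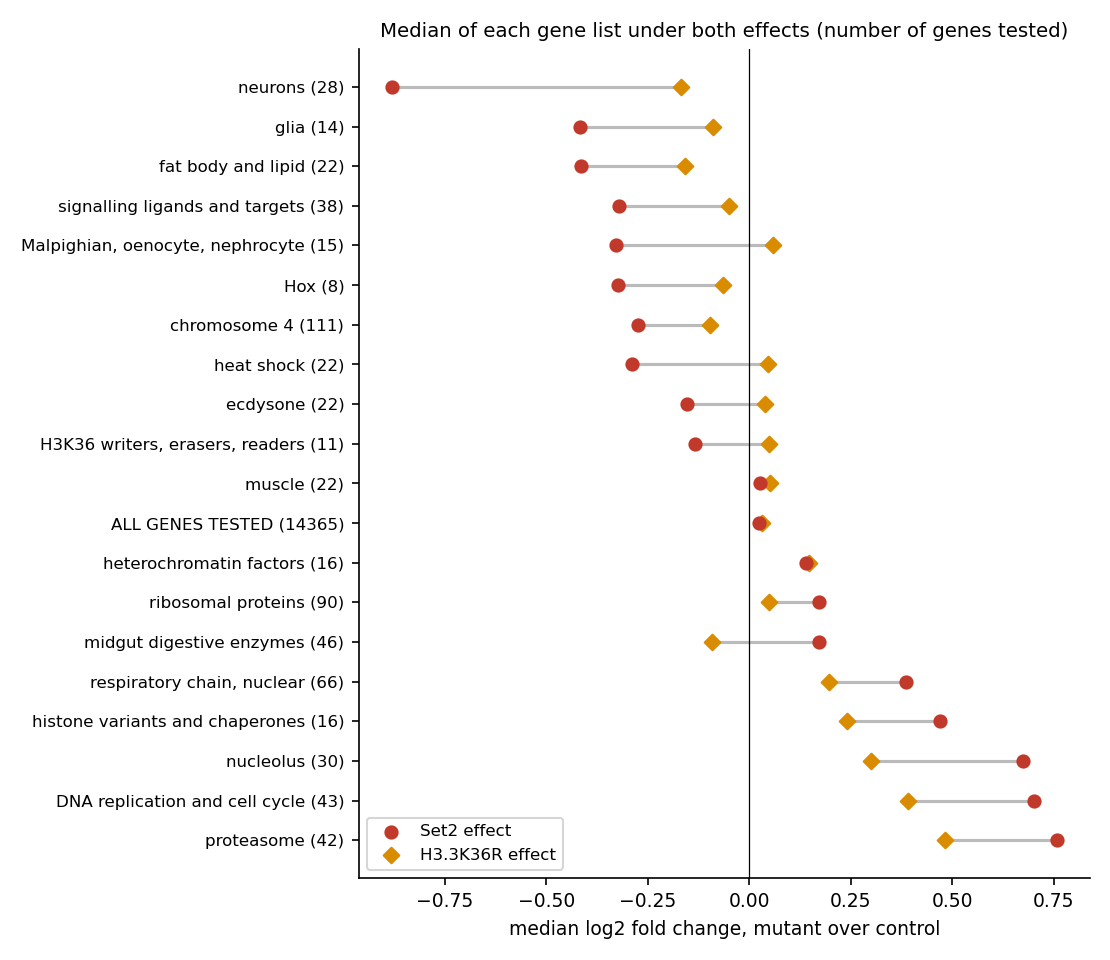
For each gene list, the red circle is the median log2 fold change in the Set2 effect and the orange diamond that in the H3.3K36R effect, with the number of genes tested in brackets. Neuronal genes have the widest gap between both medians among the lists drawn (-0.88 and -0.17), while proteasome, replication and nucleolus genes are above 0 in both effects.

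Long genes held most of the negative differences. The genes were put in 4 bins of equal size by annotated span. In the longest bin (from 4853 bases up), 616 of 3574 had a negative and 52 a positive difference, 18.7% called in all, against 7.16% to 8.23% in the other 3 bins. The median of the longest bin was -0.25 for the Set2 effect and -0.06 for the H3.3K36R effect. In each of the 3 shorter bins both medians were above 0. With the trend of each library's values on gene length taken out, 1210 genes had a called difference, 52.5% of them positive, where 31.7% of the 1493 were. Under that setting 7 neuronal genes had a negative difference with a median of -0.39, and Snap25, whose annotated span is 225026 bases, was at 0.0027 (adjusted p = 0.997).

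**Figure D4:**
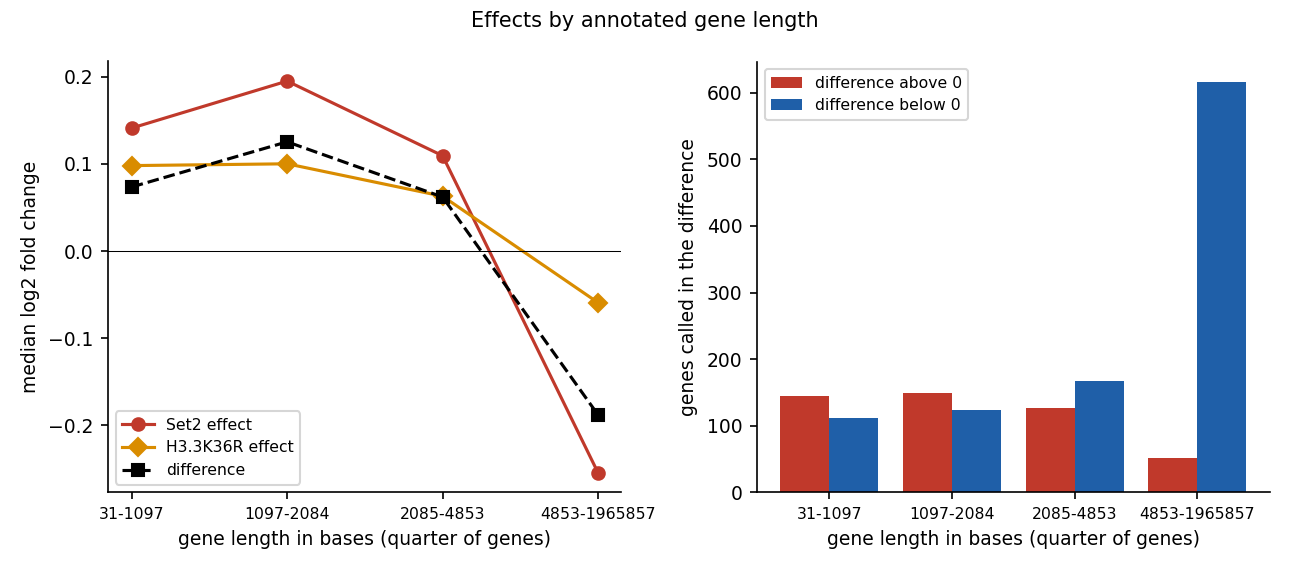
Left, median log2 fold change of the Set2 effect, the H3.3K36R effect and the difference in 4 equal bins of the genes tested, ordered by annotated gene length in bases. Right, the number of genes with a called positive (red) or negative (blue) difference in each bin, with 52 positive and 616 negative in the longest.

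Genes of fat storage, of the Malpighian tubule and of JAK/STAT signalling were among the further negative differences. Of 22 fat body and lipid genes 9 were lower in the Set2 effect, where 21.1% of all genes are, and 3 had a negative difference (13.6%, where 7.1% of all genes have one). In the H3.3K36R effect edgeR and DESeq2 called none of them (4 at an unadjusted p below 0.05, all lower). NLaz, a lipid-binding lipocalin, had a difference of -1.21 ± 0.30 (adjusted p = 0.0122) and averaged 2.63 ± 0.747 CPM in Set21 and 5.94 ± 0.367 CPM in yw, against 3.78 ± 0.658 CPM in H3.3K36RH3.2HWT and 3.69 ± 0.783 CPM in H3.3CtrlH3.2HWT (SD, n = 4, 3, 4 and 4). The fatty acid genes Desat1 (-0.95 ± 0.23) and FASN1 (-1.27 ± 0.33) were the other 2. Their calls were lost without H3.3K36RH3.2HWT replicate 1 or yw replicate 4, and that of FASN1 also without H3.3CtrlH3.2HWT replicate 3, H3.3K36RH3.2HWT replicate 2 or yw replicate 3 (adjusted p = 0.0509 to 0.0751). The count was 1 without H3.3K36RH3.2HWT replicate 1 or yw replicate 4 and 5 without yw replicate 2.

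The potassium channel gene Irk3 of the Malpighian tubule, the fly's kidney, was at 21.5, 21.5, 22 and 19.2 CPM in Set21 and 37.5, 32.2 and 41.7 CPM in yw, against 34.6, 28.8, 23.5 and 23.5 CPM in H3.3K36RH3.2HWT and 24.4, 31.6, 24.8 and 22.6 CPM in H3.3CtrlH3.2HWT. Set21 was below all other libraries, and yw had the highest mean, with a difference of -0.91 ± 0.20 (adjusted p = 0.00606). Its relative Irk1 had a difference of -0.63 ± 0.14, which was lost with the length trend removed (adjusted p = 0.127). Of the 15 tubule, oenocyte and nephrocyte genes 6 were lower and 2 higher in the Set2 effect, where 21.1% and 23.4% of all genes are. A negative difference was called for 4 (26.7%, where 7.1% of all genes have one). In the H3.3K36R effect edgeR and DESeq2 called none of the 15 (2 at an unadjusted p below 0.05). The count of 4 fell to 2 in 7 of the 15 fits without 1 library (H3.3CtrlH3.2HWT replicate 2 or 3, H3.3K36RH3.2HWT replicate 1 or 2, Set21 replicate 1, yw replicate 2 or 3) and to 1 with the length trend removed.

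Of 38 signalling ligands and targets 20 were lower and 1 higher in the Set2 effect, where 21.1% and 23.4% of all genes are. Neither edgeR nor DESeq2 called any in the H3.3K36R effect (4 at an unadjusted p below 0.05, all lower). A negative difference was called for 6 (15.8%, where 7.1% of all genes have one). The JAK/STAT ligand gene upd3 was at 0.857, 0.665, 1.44 and 1.58 CPM in Set21 and 12.2, 7.22 and 1.43 CPM in yw, against 1.97 to 2.95 CPM in H3.3K36RH3.2HWT and 1.97 to 3.24 CPM in its control. The yw libraries were uneven and 1 overlapped Set21, and the difference was -2.71 ± 0.60 (adjusted p = 0.00657). Its neighbor upd2 had -2.98 ± 0.77, a call lost without yw replicate 3 (adjusted p = 0.0528). The count of 6 was 2 or 3 in 10 of the 15 fits without 1 library, those without H3.3CtrlH3.2HWT replicate 1, 2 or 3, H3.3K36RH3.2HWT replicate 1, 2 or 4, Set21 replicate 1 or 2, or yw replicate 2 or 3, and 3 with the length trend removed.

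Digestive enzymes of the midgut had called differences in both directions. Of 46 tested, 15 were higher and 8 lower in the Set2 effect, where 23.4% and 21.1% of all genes are. In the H3.3K36R effect 1 was higher and 1 lower, where 0.947% and 1.02% of all genes are. A positive difference was called for 13 and a negative one for 4, 37.0% called in all against 10.4% of all genes. The chymotrypsin-like protease gene Jon99Fii was at 648, 517, 1309 and 868 CPM in Set21 and 169.7, 348 and 271 CPM in yw, against 575, 610.02, 677 and 672 CPM in H3.3K36RH3.2HWT and 880.2, 985, 958 and 961 CPM in H3.3CtrlH3.2HWT. Set21 was above yw in every library and the H3.3 mutant below its control in every library, and the difference was 2.25 ± 0.33 (adjusted p = 0.000193). The maltase gene Mal-B1 had a difference of 2.4 ± 0.33 (adjusted p = 6e-05), and the lysozyme gene LysP, which has close copies, of 5.01 ± 0.80. Another maltase gene, Mal-A1, went the other way: it averaged 123 ± 19.9 CPM in Set21 and 278 ± 56.6 CPM in yw, against 162 ± 23.9 CPM in H3.3K36RH3.2HWT and 145 ± 26.6 CPM in H3.3CtrlH3.2HWT (SD, n = 4, 3, 4 and 4), with a difference of -1.33 ± 0.29 (adjusted p = 0.00518). Over the fits without 1 library the positive count was 11 to 15 and the negative count 3 or 4.

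Cuticle proteins were split. Of 124 tested, 24 were higher and 19 lower in the Set2 effect, where 23.4% and 21.1% of all genes are. In the H3.3K36R effect 1 was higher and 2 lower, where 0.947% and 1.02% of all genes are. A positive difference was called for 7 and a negative one for 6 (10.5% called, close to the 10.4% of all genes). Besides Lcp3, the members with the lowest adjusted p were Cpr72Ec (4.32 ± 0.62), Ccp84Aa (2.38 ± 0.41) and Cpr49Af (-1.72 ± 0.35). The positive count was 4 without H3.3CtrlH3.2HWT replicate 1 or 4 or yw replicate 2 or 4. Cht5, a chitinase that clears old cuticle, was at 70.01, 25.6, 65.7 and 70.8 CPM in Set21 and 5.29, 5.92 and 5.87 CPM in yw, against 7.97, 9.68, 31.1 and 17.4 CPM in H3.3K36RH3.2HWT and 12.1, 9.34, 17.5 and 10.6 CPM in H3.3CtrlH3.2HWT. Set21 was highest as a group, the H3.3 groups overlapped, and the difference was 2.93 ± 0.62 (adjusted p = 0.00538). Of 19 Osiris genes, membrane proteins of cuticle-forming cells, 13 were higher in the Set2 effect, where 23.4% of all genes are. In the H3.3K36R effect edgeR and DESeq2 called none of the 19 (0 at an unadjusted p below 0.05). Their median was 3.31 for the Set2 effect and -0.09 for the H3.3K36R effect, but 2 had a called difference in the main fit, 8 with the 15 libraries alone and 11 with DESeq2. That count was 0 in 9 of the 15 fits without 1 library (H3.3CtrlH3.2HWT replicate 2 or 3, H3.3K36RH3.2HWT replicate 1, 2 or 4, Set21 replicate 1, any yw replicate) and 1 without H3.3CtrlH3.2HWT replicate 1 or 4, H3.3K36RH3.2HWT replicate 3 or Set21 replicate 2 or 3. A list of 10 late embryo markers shares at least Osi20 with the Osiris genes, so it is not separate from them. Of the 10, 7 were higher and 1 lower in the Set2 effect, where 23.4% and 21.1% of all genes are. A positive difference was called for 1 (10%, where 3.29% of all genes have one). The medians of the markers were 4.67 for the Set2 effect, 0.40 for the H3.3K36R effect and 3.96 for the difference. With the axis score as a covariate 4 Osiris genes were higher in the Set2 effect and 6 had a positive difference, and the Set2 medians were 2.01 for the Osiris genes and 2.09 for the embryo markers. The part of the larvae's stage in the Osiris values was not tested.

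Heat shock genes had 4 higher and 7 lower of 22 in the Set2 effect, where 23.4% and 21.1% of all genes are. A negative difference was called for 5 (22.7%, where 7.1% of all genes have one). In the H3.3K36R effect edgeR called none of them (3 higher and 2 lower at an unadjusted p below 0.05) and DESeq2 called 1, which was higher. Hsp70Bb was at 0.564, 0.159, 0.214 and 0.263 CPM in Set21 and 1.24, 1.51 and 0.785 CPM in yw, against 32.9, 36.2, 29.9 and 19.4 CPM in H3.3K36RH3.2HWT and 16, 11, 14.9 and 13.2 CPM in H3.3CtrlH3.2HWT. The H3.3 mutant was above its control in every library, though that effect did not pass (1.1 ± 0.35, adjusted p = 0.11), and the difference was -3.08 ± 0.54 (adjusted p = 0.00131). The copies Hsp70Ba (-3.52 ± 0.65) and Hsp70Aa (-3.52 ± 0.72) were also called, and reads cannot be assigned with certainty among these near-identical genes. Of 60 antioxidant and detoxification genes 4 had a positive and 6 a negative difference (6.67% and 10%, where 3.29% and 7.1% of all genes have one). The cytochrome P450 gene Cyp6a23 averaged 61.8 ± 17.1 CPM in Set21 and 210.3 ± 47.1 CPM in yw, against 191 ± 26.3 CPM in H3.3K36RH3.2HWT and 187 ± 31.2 CPM in H3.3CtrlH3.2HWT (SD, n = 4, 3, 4 and 4). Its difference was -1.79 ± 0.26 (adjusted p = 0.000168), with Set21 as the low group. The glutathione transferase genes GstT3 (1.1 ± 0.23) and GstE1 (0.77 ± 0.16) had positive differences. The negative count was 10 without Set21 replicate 3. Of 31 antimicrobial and immune genes 4 had a positive difference (12.9%, where 3.29% of all genes have one). Besides Drsl2 and the PGRP-SC pair the fourth was the recognition gene PGRP-SD (2.25 ± 0.47).

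Most genes of growth lists were higher in Set21, fewer of them so with the axis score as a covariate, and few had a called difference. Of 66 respiratory chain genes encoded in the nucleus, 56 rose in the Set2 effect, where 23.4% of all genes did. In the H3.3K36R effect edgeR called 1, which rose, while 27 rose and 1 fell at an unadjusted p below 0.05. A positive difference was called for 3 of the 66 (4.55%, where 3.29% of all genes have one). The medians of the list were 0.39 for the Set2 effect, 0.20 for the H3.3K36R effect and 0.18 for the difference. Values were above 0 for all 66 in the Set2 effect and for 65 in the H3.3K36R effect. With the axis score as a covariate 20 of the 66 were higher in the Set2 effect, with medians of 0.21 for the Set2 effect and 0.13 for the H3.3K36R effect. The ATP synthase subunit gene ATPsynCF6 was at 388, 419, 423 and 366 CPM in Set21 and 185, 246 and 204 CPM in yw, against 267, 263, 257 and 273 CPM in H3.3K36RH3.2HWT and 253, 233, 239 and 249 CPM in H3.3CtrlH3.2HWT. Both mutants were above their controls without overlap, but by different amounts, 0.92 ± 0.10 in the Set2 effect and 0.12 ± 0.09 in the H3.3K36R effect (adjusted p = 0.444), with a difference of 0.79 ± 0.13 (adjusted p = 0.000468). The complex I gene ND-13B (0.74 ± 0.16) and the complex IV gene COX7B (0.52 ± 0.13) were the other 2, and the call of COX7B was lost without yw replicate 4 (adjusted p = 0.0538). The count was 5 without H3.3K36RH3.2HWT replicate 3, 6 without Set21 replicate 4 or yw replicate 3 and 9 with DESeq2.

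Of all genes tested 23.4% were higher and 21.1% lower in the Set2 effect, and 3.29% had a positive difference. Of 42 proteasome genes 33 were higher in the Set2 effect (median 0.76) and 1 in the H3.3K36R effect (median 0.48). At an unadjusted p below 0.05, 32 were higher and 1 lower in the H3.3K36R effect, where DESeq2 called 4 higher and 1 lower. A positive difference was called for 1 of the 42, Rpt3R, a variant of a base subunit, at 2.6 ± 0.79. That call was lost without H3.3CtrlH3.2HWT replicate 2 or 4, H3.3K36RH3.2HWT replicate 1 or 2, Set21 replicate 2 or 3, or yw replicate 3 or 4. Of 43 genes of DNA replication and the cell cycle, 25 rose and 2 fell in the Set2 effect (median 0.70). In the H3.3K36R effect 1 was called higher (median 0.39; 14 higher and 0 lower at an unadjusted p below 0.05). The mitotic kinesin gene pav alone had a called difference (1.08 ± 0.27, adjusted p = 0.0124). Of 30 nucleolus genes, 23 rose and 2 fell in the Set2 effect (median 0.68), none was called in the H3.3K36R effect by edgeR or DESeq2 (median 0.30; 6 higher and 1 lower at an unadjusted p below 0.05), and the exosome subunit gene Rrp4 alone had a called difference (0.79 ± 0.18, adjusted p = 0.0085). The medians of these lists were above that of all genes tested in both effects. With the axis score as a covariate, the Set2 effect was called higher for 18 and lower for 1 of the proteasome genes (median 0.27), higher for 4 and lower for 2 of the replication genes (median 0.23) and higher for 2 and lower for 1 of the nucleolus genes (median 0.32). In that fit the H3.3K36R effect was called higher for 11 proteasome genes (median 0.26).

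Among genes of histones and H3K36, His3.3A, one of the genes for H3.3, was at 125, 119.9, 131 and 114 CPM in Set21 and 62.9, 69 and 59.7 CPM in yw, against 40.2, 36.3, 42.8 and 49.3 CPM in H3.3K36RH3.2HWT and 27.1, 36.2, 38.4 and 36.5 CPM in H3.3CtrlH3.2HWT. The Set21 libraries were the highest, and all histone genotype libraries were below yw. The Set2 effect was 0.94 ± 0.13, the H3.3K36R effect 0.29 ± 0.11 (adjusted p = 0.175) and the difference 0.65 ± 0.17 (adjusted p = 0.0158), which was lost without yw replicate 4 (adjusted p = 0.0554). The other H3.3 gene, His3.3B, had a difference of 0.02 ± 0.10 (adjusted p = 0.941). Of 16 histone variant and chaperone genes 11 were higher in the Set2 effect, where 23.4% of all genes are, and 2 with the axis score as a covariate. In the H3.3K36R effect edgeR called none of them, though 8 were higher at an unadjusted p below 0.05 and DESeq2 called 2 higher. The medians were 0.47 and 0.24. Of 11 genes that write, erase or read H3K36 methylation, Set2 and the demethylase gene Kdm2 (-0.38 ± 0.11, adjusted p = 0.0283) had a called difference. The Kdm2 call was lost in 11 of the 15 fits without 1 library and was kept without H3.3CtrlH3.2HWT replicate 1 or 4, Set21 replicate 2 or Set21 replicate 3. The other H3K36 methyltransferase genes NSD (0.06 ± 0.11) and ash1 (-0.15 ± 0.11), the demethylase genes Kdm4A (-0.25 ± 0.20) and Kdm4B (-0.28 ± 0.18) and the reader gene MRG15 (0.14 ± 0.18) were not called.

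Among 10 genes of the MSL complex, its RNAs included, edgeR and DESeq2 called no difference, and 1 gene had an unadjusted p below 0.05. Of all genes 10.4% had a called difference in edgeR, so a count of 0 in 10 is near that share. In the Set2 effect 2 of the 10 were higher and 2 lower, where 23.4% and 21.1% of all genes are. The H3.3K36R effect was called lower for 2, where 1.02% of all genes are. The gene roX1 (chromosome X, 3857230 to 3862697), which makes an RNA that is bound into the complex, was at 627, 786, 731 and 628 CPM in Set21 and 1031, 819 and 939 CPM in yw, against 657, 826, 863 and 745 CPM in H3.3K36RH3.2HWT and 1309, 1304, 1099 and 1556 CPM in H3.3CtrlH3.2HWT. Both mutants were below their controls without overlap. The level of roX1 fell by 0.42 ± 0.16 in the Set2 effect and by 0.77 ± 0.15 in the H3.3K36R effect, and the difference was 0.34 ± 0.22 (adjusted p = 0.345). For roX2 the Set2 effect was -0.38 ± 0.19 (adjusted p = 0.109), the H3.3K36R effect -0.85 ± 0.18 (adjusted p = 0.0104) and the difference 0.47 ± 0.26 (adjusted p = 0.271). The acetyltransferase gene mof had a difference of 0.36 ± 0.15 (adjusted p = 0.134), which passed without H3.3K36RH3.2HWT replicate 3 (adjusted p = 0.0481). The differences of msl-1 (0.16 ± 0.13), msl-3 (-0.19 ± 0.13) and the helicase gene mle (-0.04 ± 0.11) were smaller. Sxl, which sets female development, had a difference of -0.58 ± 0.25 (adjusted p = 0.149), with levels of 220.4, 225, 101 and 233 CPM in Set21 and 269, 282 and 303 CPM in yw. The marker genes y (-0.73 ± 0.24, adjusted p = 0.0544) and w (-1.14 ± 0.24, adjusted p = 0.0039) differ by stock, and the y difference passed in 7 of the 23 alternative settings. The gene w was at 0.374 to 0.711 CPM in Set21 and 0.934 to 1.29 CPM in yw, against 142 to 174 CPM in H3.3K36RH3.2HWT and 119 to 164 CPM in its control.

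The shift of the X as a whole was below 0 in the Set2 effect and above 0 in the H3.3K36R effect. The X minus autosome index of a library subtracts from the mean log2 CPM of its X genes the mean of its genes on the arms of chromosomes 2 and 3. It was 0.326 ± 0.048 in Set21 (SD, n = 4) and 0.400 ± 0.0094 in yw (SD, n = 3), and 0.384 ± 0.020 in H3.3K36RH3.2HWT (SD, n = 4) and 0.356 ± 0.011 in H3.3CtrlH3.2HWT (SD, n = 4). The shift was -0.07 in the Set2 effect (two-sided exact permutation p = 0.0571) and 0.03 in the H3.3K36R effect (exact permutation p = 0.0857), and neither passed. The difference of both shifts was -0.10 (two-sided exact permutation p = 0.00245 over 2450 arrangements of mutant and control labels within each background, where 0.000408 is the smallest p possible). That test sets the data against no effect in either background. The Set21 libraries lay at 0.256 to 0.361 and all below the yw libraries, at 0.392 to 0.410. Set21 replicate 3 gave the low end, with the other Set21 libraries at 0.332 to 0.361. Without that library the difference of both shifts was -0.079 (exact permutation p = 0.00429). The same library was the low one for Sxl, at 101 CPM. The sex make-up of the pools was not tested. The H3.3K36RH3.2HWT libraries, at 0.363 to 0.412, overlapped their control, at 0.345 to 0.368. The difference was -0.07 to -0.12 under the alternatives run, including each fit without 1 library, and passed in all of them.

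**Figure D5:**
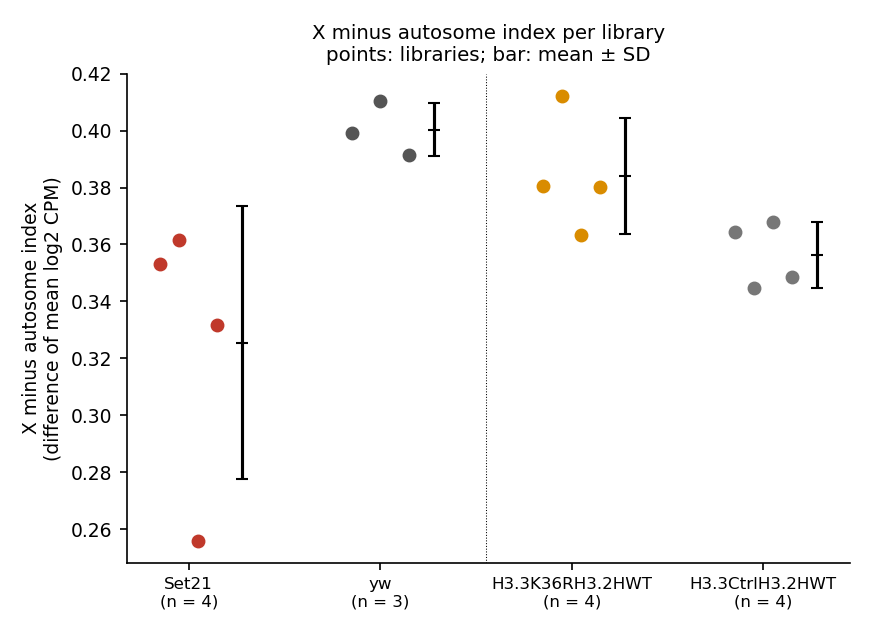
The X minus autosome index (difference of mean log2 CPM) of each library, as points by genotype, with the mean and SD as a bar beside them. All 4 Set21 libraries are below the 3 yw libraries, whereas the H3.3K36RH3.2HWT libraries lie level with or above H3.3CtrlH3.2HWT, with overlap.

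By gene, 49 of 2249 X genes had a positive and 163 a negative difference (9.43% called), against 9.60% to 11.6% on the 4 large autosome arms. The X median of the difference was -0.03, where those arms had 0.01 each. The negative X count was 67 to 93 without H3.3CtrlH3.2HWT replicate 2 or 3, H3.3K36RH3.2HWT replicate 1 or 2, Set21 replicate 1, or any yw replicate, and 96 with the length trend removed. Of the 282 genes called in the H3.3K36R effect 85 lay on the X (30.1%). On the small chromosome 4, which has its own chromosome-wide regulation, 3 of 111 genes had a positive and 13 a negative difference. These are 2.7% and 11.7%, where 3.29% and 7.1% of all genes have one. The medians of chromosome 4 were -0.28 for the Set2 effect and -0.10 for the H3.3K36R effect. Actbeta, an activin ligand gene on that chromosome, was at 13.2, 15.5, 12.7 and 13.6 CPM in Set21 and 30.01, 32.5 and 37.3 CPM in yw, against 25.8 to 30.8 CPM in H3.3K36RH3.2HWT and 26.5 to 32.4 CPM in H3.3CtrlH3.2HWT. Set21 alone was low, with a difference of -1.16 ± 0.18 (adjusted p = 0.000386), and the Pax6 gene toy (-0.66 ± 0.13) and the cell surface gene dpr7 (-0.82 ± 0.16) followed. Once the length trend was removed chromosome 4 had 7 positive and 9 negative differences. The positive count was 1 without H3.3CtrlH3.2HWT replicate 3, H3.3K36RH3.2HWT replicate 1 or yw replicate 3 and 0 without H3.3CtrlH3.2HWT replicate 4 or yw replicate 4. The negative count was 7 without H3.3CtrlH3.2HWT replicate 3 or H3.3K36RH3.2HWT replicate 1 and 8 without H3.3K36RH3.2HWT replicate 2.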

How the data were processed

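Total RNA of whole L1 larvae was read as pairs, per the labels. The authors deposited raw counts per gene, and STAR 2.7.2a and Subread 2.0.3 are named by the submitters' processing notes. For the genome build, annotation, strand setting and treatment of multiply mapped reads, a value is not given in the sources used here. Of counts from 5 to below 20, 62.1% were even, so mates of a pair may have been counted separately, and counts are not independent molecules. Gene names, arms and coordinates come from the BDGP6.54 annotation, which matched 17527 of 17606 IDs. It is not known to be the build of the counts.

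Genes with low counts were removed by edgeR 4.0.16 (R 4.3.3; filterByExpr, minimum count 10), which left 14365 and removed 3241. TMM factors, 1 mean per genotype over all 23 libraries and a robust quasi-likelihood fit gave both effects and their difference, with Benjamini-Hochberg adjustment over all 14365 genes and a threshold of 0.05. Errors after ± are standard errors for log2 fold changes and SDs for CPM. The common biological coefficient of variation was 0.311 at 17 residual degrees of freedom. Replicates differed by more than sampling noise in every group. On simulated counts for this difference, 36.7% of the 98 tested genes changed by log2 1 and 62.6% of the 99 tested genes changed by log2 2 were recovered among 14066 genes, with 3 false calls. DESeq2 1.42.0 was an alternative. The X index used a prior count of 2. Named genes were fixed ones, the largest differences among genes of at least 5 CPM with separate libraries in a comparison, and up to 4 members a list with the lowest adjusted p, with those chosen after their values were seen named as such. The genes and lists were chosen with earlier results of these data known.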

Additional observations from a re-analysis of the deposited data

Results flagged for a closer look

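In 20 of 327 checks of a gene or the X index in a group of 4 libraries, 1 library stood apart from the other 3 by Dixon's criterion; chance flags about 1 in 20 groups. In Set21, 1 library was high for roX2 at 86.6 CPM (nearest other 58.8 CPM), Hsp23 at 4.25 CPM (2.99), ND-13B at 91.0 CPM (77.5), RpS14b at 246 CPM (199) and pav at 7.81 CPM (6.23), and 1 was low for Sxl at 101 CPM (220.4) and Cht5 at 25.6 CPM (65.7). In H3.3K36RH3.2HWT, 1 library was high for tpr at 8.05 CPM (3.41) and COX7B at 277 CPM (253), and low for mle at 51.8 CPM (59.4). In H3.3CtrlH3.2HWT, 1 library was high for mle at 59.0 CPM (54.3), Jig at 1.47 CPM (0.273), tpr at 5.90 CPM (2.39), PGRP-SC2 at 422 CPM (372), NLaz at 4.86 CPM (3.35) and CG8664 at 93.4 CPM (67.0). It was low for ND-13B at 44.3 CPM (49.1), Vmat at 202 CPM (234), Ccp84Aa at 3.22 CPM (3.91) and Ku80 at 3.35 CPM (4.97).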

How the results depend on the processing

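The count of called differences, 1493, was 805 to 1564 in the 15 fits without 1 library, 1332 under RLE scaling, 1485 where autosomal genes alone set the TMM factors, 1232 with no filter on low counts, 1398 in the fit to the 15 libraries, 1210 with the length trend removed, 1497 with the axis score as a covariate and 1908 with DESeq2. The share of positive calls was 31.7%, against 27.5% to 50.9% without 1 library (50.9% without H3.3K36RH3.2HWT replicate 1, 49.2% without H3.3CtrlH3.2HWT replicate 3), 52.5% with the length trend removed, 44.9% in the 15 libraries and 43.1% with DESeq2. Of the 1493 genes 554 had a called difference under every setting, a count that did not compare directions. Differences of at least 2-fold were 422 to 599 without 1 library. The Set2 count of 6399 was 3257 with the axis score as a covariate and 4902 to 6459 without 1 library. The H3.3K36R count of 282 was 450 in the 15 libraries, 714 with DESeq2 and 156 to 464 without 1 library. The X index difference was -0.071 to -0.117 (exact permutation p = 0.00163 to 0.0133). Among the named genes with a called difference Snap25 alone turned its sign, to 0.0027 with the length trend removed. Over named genes and settings 4049 values stayed on their side of the threshold, 243 lost the call and 122 gained it. The causes were not tested.

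Replicate numbers did not pair the 15 libraries as a whole. Of 21 pairs with the same number 2 had a correlation of deviations over 0.1 (range -0.060 to 0.297), and 6 of 15 libraries correlated best with their own number. Both pairs join H3.3K36RH3.2HWT to H3.3CtrlH3.2HWT, replicate 1 with 1 (0.268) and 3 with 3 (0.297). Their replicates 2 and 4 were at -0.0036 and -0.037. A batch shared by replicate number among the histone genotypes was not tested. With a replicate block the difference count was 2085 and the H3.3K36R count 854, 708 genes were called in both effects, 38 of them in opposite directions, and the difference of Amy-p passed (adjusted p = 0.0471). Genes under a few CPM are limited by depth, and the median standard error of the difference was 0.26 on the log2 scale.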

Other observations

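Several groups outside the comparisons above had called differences of effects. Sgs5, a glue protein gene of the salivary gland, was at 6.1, 5.1, 7.46 and 6.33 CPM in Set21 and 0, 0 and 0.00902 CPM in yw, against 1.05, 1.47, 3.06 and 3.1 CPM in H3.3K36RH3.2HWT and 0.0335, 0.0531, 0 and 0 CPM in H3.3CtrlH3.2HWT. Both mutants were above both controls, and the difference was not called (adjusted p = 0.136). Of 28 genes of the mitochondrial genome 3 had a positive difference (10.7%, where 3.29% of all genes have one). Among them was mt:CoIII, a subunit gene of respiratory complex IV. It averaged 5237 ± 171 CPM in Set21 and 4189 ± 354 CPM in yw, against 4571 ± 292 CPM in H3.3K36RH3.2HWT and 5334 ± 615 CPM in H3.3CtrlH3.2HWT (SD, n = 4, 3, 4 and 4), with a difference of 0.54 ± 0.12 (adjusted p = 0.0063). Gpdh1, which links glycolysis to lipid synthesis, averaged 615 ± 108 CPM in Set21 and 1279.7 ± 314 CPM in yw, against 655 ± 115 CPM in H3.3K36RH3.2HWT and 652 ± 123 CPM in H3.3CtrlH3.2HWT. Its difference of -1.06 ± 0.26 was lost without yw replicate 4 (adjusted p = 0.05). Ku80, of DNA end joining, was higher in Set21 alone, at 9.66, 11.5, 11.7 and 10.8 CPM in Set21 and 4.25, 5.2 and 6.8 CPM in yw, against 4.06 to 5.19 CPM in H3.3K36RH3.2HWT and 3.35 to 5.12 CPM in H3.3CtrlH3.2HWT, with a difference of 1.01 ± 0.25 (adjusted p = 0.0117). The germline differentiation gene bgcn was among the 22 opposite genes, higher in Set21 (0.7 ± 0.26) and lower in the H3.3 mutant (-1.01 ± 0.24). Jig averaged 15.5 ± 9.13 CPM in Set21 and 0.0868 ± 0.136 CPM in yw, against 0.81 ± 0.483 CPM in H3.3K36RH3.2HWT and 0.496 ± 0.654 CPM in H3.3CtrlH3.2HWT, with an adjusted p of 0.0113 for the difference.

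Of 8 Hox genes 4 were lower in the Set2 effect, where 21.1% of all genes are. A negative difference was called for pb (-0.62 ± 0.17) and Ubx (-0.77 ± 0.22), 25% of the list, where 7.1% of all genes have one. That count was 0 in the fit to the 15 libraries, with the length trend removed and without H3.3CtrlH3.2HWT replicate 2 or 3, H3.3K36RH3.2HWT replicate 1 or 2, or yw replicate 2 or 3. It was 1 without H3.3K36RH3.2HWT replicate 3, Set21 replicate 1 or 4, or yw replicate 4. Of 19 Polycomb group genes the neighbors ph-p and ph-d, which are near copies, had a negative difference (-0.52 ± 0.14 and -0.41 ± 0.13). They are 10.5% of the list, where 7.1% of all genes have a negative difference. The Polycomb count was 0 or 1 in all fits without 1 library except those without H3.3CtrlH3.2HWT replicate 4 or Set21 replicate 4. Of 39 chitin and barrier genes 5 had a positive difference (12.8%, where 3.29% of all genes have one), Cht5 among them. The count was 3 without H3.3CtrlH3.2HWT replicate 1, 3 or 4 or yw replicate 4. Of 434 antisense RNA genes 57 were lower and 17 higher in the Set2 effect, smaller shares than the 21.1% and 23.4% of all genes. A negative difference was called for 11 and a positive one for 6 (3.92% called, where 10.4% of all genes are). The negative count was 4 to 7 without H3.3CtrlH3.2HWT replicate 2 or 3, H3.3K36RH3.2HWT replicate 1, 2 or 3, Set21 replicate 4 or any yw replicate. Without a known strand setting, reads of an antisense gene cannot be told apart from those of its partner.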
